A study of Mus musculus with 10 samples.

Results

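Growth hormone reaches the liver in pulses and binds the growth hormone receptor, GHR, on hepatocytes. The receptor carries the kinase JAK2, which phosphorylates the receptor and the transcription factors STAT5A and STAT5B. Phosphorylated STAT5 enters the nucleus and drives a set of genes that includes IGF1, the main circulating growth factor made by the liver, and IGFALS, the acid-labile subunit that holds IGF1 in a large complex in plasma. STAT5 also drives its own brakes, the SOCS-family proteins SOCS2 and CISH. The rhythm of the pulses differs between male and female mice, and STAT5, together with the repressors BCL6 and CUX2, sets the sex-biased part of liver gene expression.

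The genes described here are the 10 named components of this axis, chosen by symbol and not by any measured value: the receptors Ghr and Prlr, the transcription factors Stat5a and Stat5b, the feedback inhibitors Socs2 and Cish, the secreted products Igf1 and Igfals, and the repressors Bcl6 and Cux2. All 10 were among the 24052 genes listed, and 9 passed the filter of at least 1 CPM (counts scaled to a common library total) in at least 5 livers. Cux2 did not pass it. RNA sequencing had been done on 1 library from each of 10 livers, 5 from wild-type and 5 from Ndrg3 LKO mice, all on a C57BL/6 background and fed ad libitum. The study's own figure of gene expression names 4 Ndrg3 LKO livers and does not say which of the 5 these were. In the Ndrg3 LKO mice, exon 4 of Ndrg3, a member of the N-Myc downstream regulated gene family, was deleted by a Cre recombinase under the albumin promoter, which is active in hepatocytes and not in most other cells of the liver. The controls were wild-type littermates, and whether they carried a floxed allele is not given in the sources used here. The age is given as 8 to 10 weeks in one place of the study and as 10 to 12 weeks in another.

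Sex matters for this axis, and the labels do not give it, although the study names male mice as its default. Xist, the transcript of the inactive X chromosome, had at most 2 counts in any of the 10 livers, whereas the Y-linked gene Ddx3y had between 991 and 4111 counts. Between 20872262 and 24747870 reads had been counted on genes in each wild-type liver, and between 23474693 and 30450057 in each Ndrg3 LKO liver. Values are given as CPM after TMM scaling, which adjusts each library total so that most genes keep the same level, and fold changes, standard errors and p-values come from the quasi-likelihood model of edgeR, adjusted by Benjamini-Hochberg over 11208 genes and called at 0.05. Ndrg3 itself fell from 18.5 ± 2.22 CPM (SD, n = 5) in wild-type livers to 8.07 ± 0.761 CPM (SD, n = 5) in Ndrg3 LKO livers, a log2 fold change of -1.20 (SE 0.13, edgeR adjusted p = 3.68e-05), and the groups did not overlap. Differences were widespread, with 2864 genes higher and 2577 lower in Ndrg3 LKO livers, so that 52.6% of the called genes were higher. Scaling by the library total alone moved that share to 85.3%, and the median of all log2 fold changes from 0.031 to 0.56.

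The general hepatocyte genes did not stay level in the livers compared. The summed level of 12 such genes, among them Alb, Ttr and Trf, was between 168170 and 204350 CPM in wild-type livers and between 53471 and 61782 CPM in Ndrg3 LKO replicates 1 to 4, but 184260 CPM in Ndrg3 LKO replicate 5. That liver therefore lay inside the wild-type range for the sum. Alb made up most of the sum there, at 108020 CPM, whereas 5 of the 12 genes, Trf, Apoa1, Apob, Fga and Fgb, were below every control in that liver too. The share over all genes was not computed for this liver. The main results are given with and without it. In bulk liver, fewer cells of a type and less RNA per cell cannot be told apart. Markers of other liver cells also differed, to be read beside 25.6% of all genes called higher and 23% called lower. Macrophage and Kupffer cell markers were higher in 8 of 8 tested (summed level 72.9 to 191 CPM in wild-type and 169 to 548 CPM in Ndrg3 LKO livers), endothelial markers in 5 of 6 (49.4 to 63.9 against 99.2 to 140 CPM) and stellate cell and fibroblast markers in 5 of 8 (112 to 178 against 241 to 313 CPM), and none of these 3 lists had a marker at 0 in every liver. Biliary markers summed to between 38.6 and 71.9 CPM in wild-type and between 51.1 and 220 CPM in Ndrg3 LKO livers, with 1 of 5 tested higher and 1 lower, and lymphocyte markers to between 3.64 and 5.24 and between 4.78 and 14.1 CPM, with the 1 marker tested higher. The part of these differences in the results below was not tested.

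STAT5 binds palindromes of the form TTCNNNGAA, and the promoters of the axis genes were searched for these letters. RefSeq promoter windows of 300 bases, from 250 before to 50 after a start of transcription, were at hand for 9 of the 10 genes, all but Socs2, as 18 windows, and each of the 18 was found unchanged in mm9. Since the motif reads the same on both strands, 1 search covers both. It occurred in 6 windows of 4 genes, Igfals, Cish, Prlr and Bcl6, and in 2726 of 32851 windows of all genes (8.3%). No match was found in the windows of Ghr, Stat5a, Stat5b, Igf1 and Cux2, which says only that these letters are not in those windows. The stretches that hold the matches are printed 5′ to 3′ on the gene's own strand, with the motif in capitals. They are matches of letters only, and binding of STAT5 to them was not measured.
Cish, 30 bases around the start, chr9:107198985-107199014, plus strand: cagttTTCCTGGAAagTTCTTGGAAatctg
Igfals, first window, chr17:25014539-25014598, plus strand: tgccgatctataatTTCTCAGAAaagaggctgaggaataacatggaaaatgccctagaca
Igfals, second window, chr17:25015076-25015175, plus strand: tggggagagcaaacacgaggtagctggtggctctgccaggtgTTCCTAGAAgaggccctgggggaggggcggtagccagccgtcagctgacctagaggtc
Prlr, second window, chr15:10153511-10153610, plus strand: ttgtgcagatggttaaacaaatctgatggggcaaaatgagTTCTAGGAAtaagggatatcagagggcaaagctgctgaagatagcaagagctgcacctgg
Bcl6, first window, chr16:23981440-23981559, minus strand: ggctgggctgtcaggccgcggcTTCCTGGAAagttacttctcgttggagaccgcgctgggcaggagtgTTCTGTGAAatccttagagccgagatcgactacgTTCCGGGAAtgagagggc
Bcl6, second window, chr16:23989009-23989108, minus strand: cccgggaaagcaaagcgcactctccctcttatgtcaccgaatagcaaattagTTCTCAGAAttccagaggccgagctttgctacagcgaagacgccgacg

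Counted from the RefSeq start, the matches in Cish began at bases 1 and 12, close behind each other, and the 30 bases printed lie inside an annotated exon of Cish, which starts further upstream in GENCODE. The match in the first Igfals window began at -236, upstream of the annotated gene, and that in the second window at -58, in an intron. In Bcl6, matches began at -168, -122 and -88 of the first window, which is intronic, and at -118 of the second, upstream of the gene. The match in Prlr began at -110 and is also intronic. Bcl6 thus had 4 matches, Cish and Igfals 2 each and Prlr 1.

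**Figure D1:**
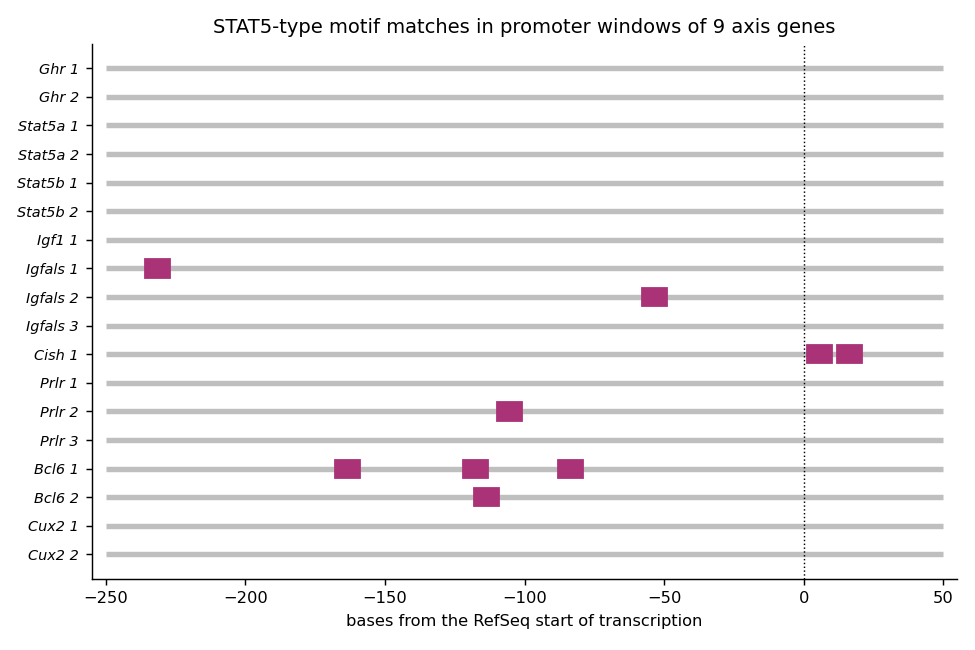
Positions of TTCNNNGAA matches (filled boxes, 9 bases wide) in 18 promoter windows of 9 axis genes (grey lines), in bases from the RefSeq start of transcription. Matches are seen in 6 of the 18 windows, of Igfals, Cish, Prlr and Bcl6, and they lie close together in Cish.

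Levels of different genes can be compared only per length, so CPM was divided by the exon length of each gene in kilobases. In wild-type livers Igf1 stood highest at 74.9 ± 9.25 CPM per kilobase (SD, n = 5), followed by Ghr at 53.8 ± 4.56 and Igfals at 40.8 ± 4.98. These 3 did not overlap each other in any liver. Stat5b followed at 7.31 ± 1.004, Prlr at 5.22 ± 0.958 and Bcl6 at 4.44 ± 4.08, and then Cish at 2.08 ± 1.77, Socs2 at 1.91 ± 0.869 and Stat5a at 1.37 ± 0.277 CPM per kilobase (SD, n = 5 each). The ranges of Bcl6 and of Cish reached across those of their neighbours in this order, so their places are not set by these livers. Cux2 stood at 0.0077 ± 0.0072 CPM per kilobase. In Ndrg3 LKO livers Igf1 was still first, at 44.1 ± 4.27 CPM per kilobase, Ghr was at 16.8 ± 9.64, and Igfals, at 7.33 ± 3.61, had come down to the level of Stat5b at 6.59 ± 1.58 and Bcl6 at 6.58 ± 1.53.

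Of the 9 genes tested, 4 were lower in Ndrg3 LKO livers and 0 were higher, beside 23% of all 11208 genes called lower and 25.6% called higher. The 4 were Ghr, Igf1, Igfals and Socs2, and in each of them the highest Ndrg3 LKO value was under the lowest wild-type value, which was so for 15.9% of all genes, while the groups were apart in either direction for 31.5%. The median log2 fold change of the 9 was -0.76, against 0.031 for all genes. Without Ndrg3 LKO replicate 5, Prlr was lower as well, making 5 of 9 lower and 0 higher, beside 27% and 28.3% of all genes (55.3% in either direction). Cish, Bcl6, Stat5a and Stat5b did not pass the test with or without that liver. With 5 livers against 5, the exact permutation test over all splits cannot go below p = 0.00794, 2-sided.

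**Figure D2:**
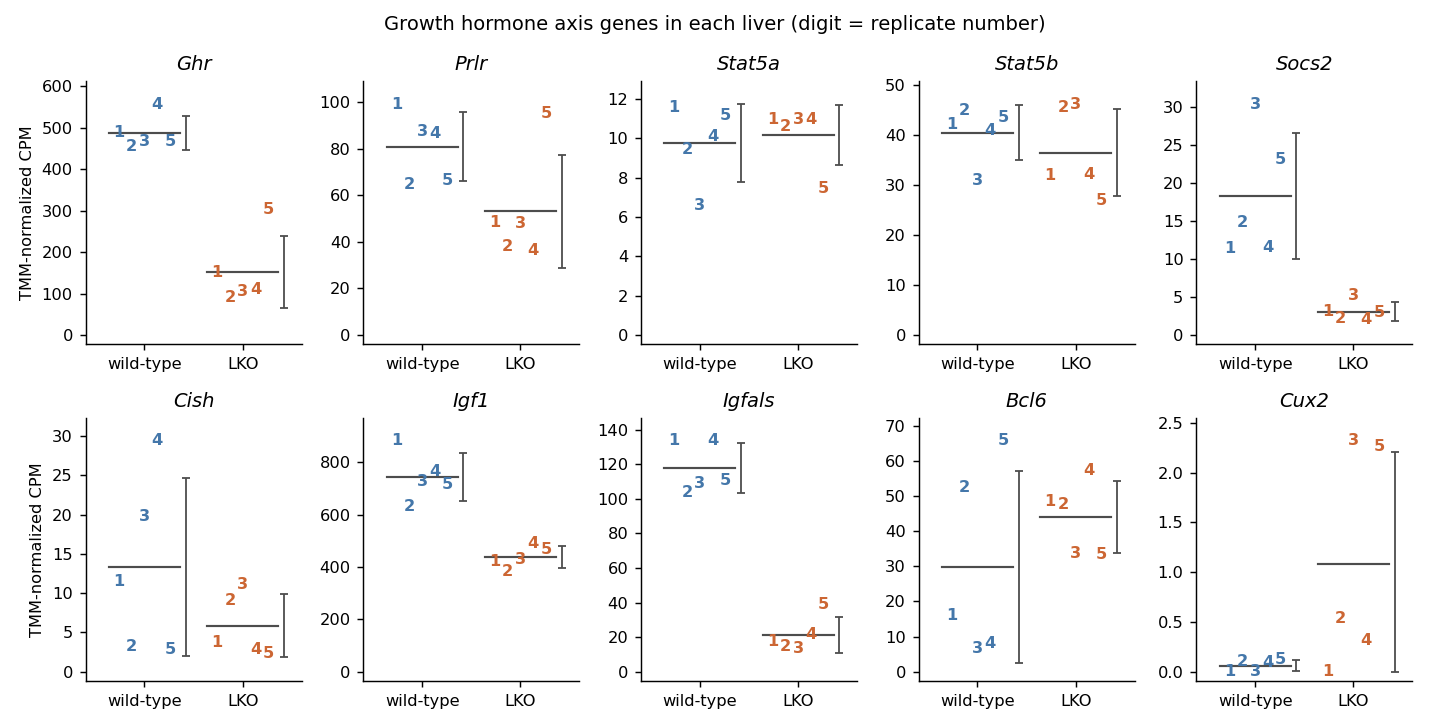
TMM-normalized CPM (vertical axes, each from 0) of the 10 axis genes in 5 wild-type (blue) and 5 Ndrg3 LKO livers (orange). Each digit is 1 liver and its replicate number, horizontal lines are group means and the bars beside them are 1 SD, cut at 0. The groups do not overlap in Ghr, Igf1, Igfals and Socs2, and Ndrg3 LKO replicate 5 stands apart from the other 4 in Ghr (303 CPM) and Prlr (94.9 CPM).

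Ghr encodes the growth hormone receptor and lies on the minus strand of chromosome 15 from 3267760 to 3533492 (mm9). The wild-type livers were close together, at 490, 454, 467, 557 and 467 CPM in replicates 1 to 5. The Ndrg3 LKO livers held 150, 91.6, 105, 111 and 303 CPM, so that 4 lay well below every control and the fifth lay between. The mean was 31.2% of the wild-type mean, and the log2 fold change was -1.68 (SE 0.30, edgeR adjusted p = 0.000888, exact permutation p = 0.00794). Without Ndrg3 LKO replicate 5, the change was -2.09 (SE 0.16, edgeR adjusted p = 1.42e-06). The coefficient of variation of Ghr, its SD as a percentage of its mean, was 8.48% in wild-type livers, which is lower than that of most genes. In Ndrg3 LKO livers it was 57.4%, above that of 94.5% of the 8698 tested genes with a mean of at least 5 CPM. Replicate 5, the liver with the most Ghr, was also the one whose summed general hepatocyte genes lay in the wild-type range.

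Prlr, the prolactin receptor, which also signals through JAK2 and STAT5, lies on the plus strand of chromosome 15 from 10106993 to 10303504, where the gene Agxt2 is annotated across it on the same strand. It held 99.1, 64.5, 87.4, 86.6 and 66.5 CPM in wild-type livers. Values of 48.1, 38.0, 47.6 and 36.4 CPM were found in Ndrg3 LKO replicates 1 to 4, all below the lowest control, but replicate 5 held 94.9 CPM, near the highest control. With all livers the log2 fold change was -0.61 (SE 0.25), which did not pass the test (edgeR adjusted p = 0.0616, exact permutation p = 0.0556). The 95% confidence interval ran from -1.16 to -0.064. Without replicate 5 it was -0.93 (SE 0.16, edgeR adjusted p = 0.000477), so the call changed with this 1 liver. It also changed with the tool and the filter: Prlr passed the threshold in 6 of 20 alternative analyses, among them DESeq2 (adjusted p = 0.0404) and edgeR without the filter (adjusted p = 0.0486) with all livers.

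The transcription factors themselves differed little. Stat5a, on the plus strand of chromosome 11 from 100720665 to 100746483, held 11.6, 9.44, 6.58, 10.1 and 11.1 CPM in wild-type and 10.97, 10.6, 10.96, 10.96 and 7.46 CPM in Ndrg3 LKO livers. Its log2 fold change was 0.06 (SE 0.18, edgeR adjusted p = 0.787, exact permutation p = 0.611), with a 95% confidence interval from -0.32 to 0.44. Stat5b, the more abundant of the pair in liver, lies next to it on the minus strand from 100642045 to 100712038. It held 42.05, 44.9, 30.9, 41.0 and 43.6 CPM in wild-type and 31.96, 45.4, 46.2, 32.1 and 26.9 CPM in Ndrg3 LKO livers, a log2 fold change of -0.15 (SE 0.17, edgeR adjusted p = 0.494, exact permutation p = 0.421, 95% confidence interval -0.52 to 0.22). The groups of both genes overlapped throughout, and the intervals exclude a change the size of that of Ghr. The ratio of Stat5a to Stat5b within a liver was 0.23 higher in Ndrg3 LKO livers on the log2 scale (exact permutation p = 0.143, adjusted p over 4 ratios = 0.190). Since the pair are close copies, reads can be shared: of the 100-base windows of annotated Stat5a transcripts, 6.31% also occurred in Stat5b. Stat5a further overlaps Stat3 on the opposite strand, and the strand setting of the counting is not given.

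Socs2, a feedback inhibitor that binds the activated growth hormone receptor, lies on the minus strand of chromosome 10 from 94847996 to 94879814. Wild-type livers held 11.4, 14.7, 30.3, 11.5 and 23.1 CPM, and Ndrg3 LKO livers held 3.08, 2.14, 5.23, 1.998 and 2.93 CPM. The highest Ndrg3 LKO liver was thus below the lowest control, although the controls themselves differed by 2.67-fold. Mean levels were 18.2 ± 8.28 and 3.07 ± 1.30 CPM (SD, n = 5 each), a 5.92-fold lower level in Ndrg3 LKO livers (log2 fold change -2.56, SE 0.35, edgeR adjusted p = 0.00017, exact permutation p = 0.00794). Leaving out replicate 5 hardly moved the change, to -2.54 (SE 0.38), and in that liver Socs2 was as low as in the other 4.

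Cish, another SOCS-family inhibitor and a classic early STAT5 target, lies on the plus strand of chromosome 9 from 107198357 to 107205115, with Gm17040 and Gm17041 annotated on the opposite strand. It varied over a wide range among the controls, at 11.5, 3.18, 19.8, 29.4 and 2.86 CPM. The Ndrg3 LKO livers held 3.77, 9.10, 11.2, 2.80 and 2.36 CPM, and all 5 were below the wild-type mean while overlapping the wild-type range. The log2 fold change of -1.18 (SE 0.65) did not pass the test (edgeR adjusted p = 0.1497, exact permutation p = 0.246, 95% confidence interval -2.60 to 0.23), nor did it in any of 20 alternative analyses. Because of its spread, a change of Cish as large as that of Socs2 lies within this interval. The within-liver log2 ratio of Socs2 to Cish differed by -1.37 (exact permutation p = 0.119, adjusted p over 4 ratios = 0.190).

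Igf1 and Igfals are the products that carry the hormone's growth signal into plasma. Igf1, on the plus strand of chromosome 10 from 87321010 to 87399792 with Gm16176 on the opposite strand, held 882, 629, 725, 764 and 716 CPM in wild-type livers and 422, 382, 427, 491 and 467 CPM in Ndrg3 LKO livers. The lowest control was above the highest Ndrg3 LKO liver, and replicate 5 lay among the other Ndrg3 LKO livers. The mean fell from 743 ± 91.8 to 438 ± 42.3 CPM (SD, n = 5 each), to 58.9% of wild-type, with a log2 fold change of -0.76 (SE 0.14, edgeR adjusted p = 0.00112, exact permutation p = 0.00794) and of -0.79 without replicate 5. This call rests on the scaling: with library totals alone it came to -0.24 (edgeR adjusted p = 0.172), or -0.80 relative to the median of all genes on that scale.

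Igfals, on the plus strand of chromosome 17 from 25014600 to 25018955, fell more. Wild-type livers held 134, 103, 109, 134 and 111 CPM and Ndrg3 LKO livers held 17.5, 14.7, 13.5, 21.3 and 39.1 CPM. No Ndrg3 LKO liver came near the controls, and replicate 5 was the highest of them. The means of 118 ± 14.4 and 21.2 ± 10.4 CPM (SD, n = 5 each) gave a 5.57-fold lower level, with a log2 fold change of -2.48 (SE 0.27, edgeR adjusted p = 3.93e-05, exact permutation p = 0.00794) and -2.82 without replicate 5 (edgeR adjusted p = 1.91e-07). The ratio of Igf1 to Igfals within a liver does not depend on the scaling apart from the pseudocount. On the log2 scale it was 2.64 ± 0.092 in wild-type and 4.404 ± 0.506 in Ndrg3 LKO livers (SD, n = 5 each), a difference of 1.76 (exact permutation p = 0.00794, adjusted p over 4 ratios = 0.0317). Igfals thus fell by more than Igf1 in these livers, although the adjusted p was 0.0635 when wild-type replicate 1, 2, 3 or 5 was left out, with the difference still between 1.75 and 1.78.

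**Figure D3:**
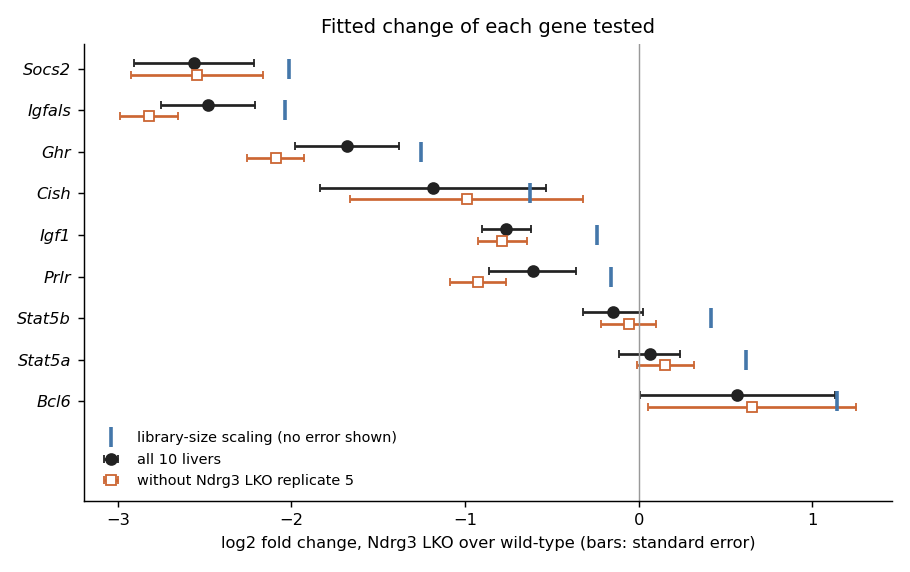
Log2 fold change of the 9 axis genes tested, Ndrg3 LKO over wild-type, from edgeR with all 10 livers (filled circles, bars 1 SE) and without Ndrg3 LKO replicate 5 (open squares, bars 1 SE), and with library-size scaling (blue ticks, no error drawn). Socs2, Igfals and Ghr lie below -1 in all 3 analyses, whereas Igf1 moves from -0.76 to -0.24 with library-size scaling.

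Bcl6, a zinc finger repressor that competes with STAT5 at many liver sites and is itself repressed by STAT5, lies on the minus strand of chromosome 16 from 23965138 to 23988938. It held 16.0, 52.3, 6.58, 8.10 and 65.7 CPM in wild-type livers, a 9.98-fold range, and 48.3, 47.5, 33.7, 57.3 and 33.5 CPM in Ndrg3 LKO livers. All 5 Ndrg3 LKO livers were above the wild-type mean of 29.7 CPM, but wild-type replicates 2 and 5 were as high as they were. The log2 fold change was 0.57 (SE 0.56) and did not pass the test (edgeR adjusted p = 0.421, exact permutation p = 0.175, 95% confidence interval -0.66 to 1.79). The coefficient of variation was 92.0% in wild-type livers, above that of 99.8% of 8698 genes, and 23.3% in Ndrg3 LKO livers.

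Cish stood beside Bcl6 in this respect, with a wild-type coefficient of variation of 85.1%, above that of 99.7% of genes, and Socs2 followed with 45.5%, above 97.5%. Across the 5 controls Cish and Bcl6 ran in opposite directions. Wild-type replicates 2 and 5 combined the lowest Cish (3.18 and 2.86 CPM) with the highest Bcl6 (52.3 and 65.7 CPM), replicates 3 and 4 combined the highest Cish (19.8 and 29.4 CPM) with the lowest Bcl6 (6.58 and 8.10 CPM), and replicate 1 lay between. Socs2 did not share this order, since it was highest in replicates 3 and 5. Ghr, Igf1 and Igfals varied little among the same livers, with coefficients of variation of 8.48%, 12.3% and 12.2% beside a median of 14.8% over 8698 genes. With 5 livers, no correlation is given.

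**Figure D4:**
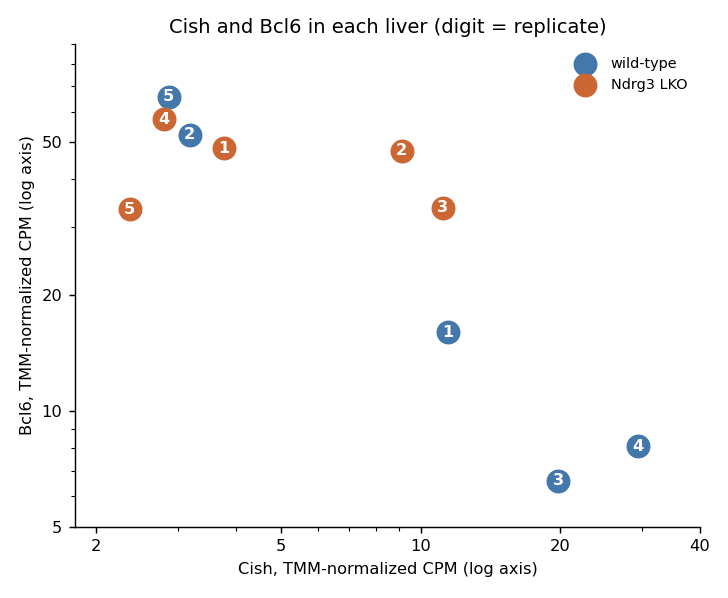
Cish (horizontal) against Bcl6 (vertical), TMM-normalized CPM on log axes, in 5 wild-type (blue) and 5 Ndrg3 LKO livers (orange), each point 1 liver with its replicate number. Wild-type replicates 2 and 5 lie at low Cish and high Bcl6 beside Ndrg3 LKO replicates 1 and 4, and wild-type replicates 1, 3 and 4 lie below every Ndrg3 LKO liver in Bcl6.

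Cux2, a homeobox repressor that is far more abundant in female than in male mouse liver, lies on the minus strand of chromosome 5 from 122308396 to 122500111, with Gm15637 on the opposite strand. It was barely detected in the controls, with 0, 2, 0, 2 and 2 counts in replicates 1 to 5, each under the floor of 3 counts. The Ndrg3 LKO livers had 0, 22, 90, 11 and 48 counts. It was therefore found in 4 of 5 of them, and not in replicate 1, so the groups overlapped at 0. Pooled over livers, 6 counts stood against 171, a ratio of normalized totals of 15.8 with a 95% counting interval from 7.10 to 43.6, which covers counting error only and not the spread between livers. Without the filter, edgeR gave a log2 fold change of 3.95 (SE 1.19, adjusted p = 0.0241 over 17746 genes), an analysis chosen with the counts in view, and the exact permutation p was 0.0476. The within-liver log2 ratio of Cux2 to Bcl6, with 1 added to each level, differed by -0.26 (exact permutation p = 0.778). Since Cux2 held at most 0.119 CPM in controls, this ratio mostly follows Bcl6 there and cannot decide on a change of Cux2. With a pseudocount of 0.1 the difference was 1.04.

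Among 22 JAK-STAT partners and brakes, 21 were tested, 4 were higher and 5 lower, with a median log2 fold change of -0.18. These shares were near those of all genes (25.6% higher and 23% lower), and the 9 calls became 5 without wild-type replicate 4 and 3 with a replicate block. Irs2 (4.46 ± 1.84 to 18.3 ± 19.1 CPM, log2 fold change 2.04, SE 0.76, edgeR adjusted p = 0.0444) and Irs1 (1.03, SE 0.22, adjusted p = 0.00262), adaptors of the insulin and IGF1 receptors, were both higher. Irs2 overlapped between the groups: Ndrg3 LKO replicates 2 and 3 held 39.3 and 38.9 CPM, while replicates 1 and 5, at 3.71 and 1.79 CPM, were no higher than controls. Jak2, the kinase of the growth hormone receptor, was named after its values were seen. It fell by 0.44 on the log2 scale (SE 0.14, edgeR adjusted p = 0.0185), from 10.7 to 7.86 CPM, with no overlap between the groups.

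Of the 15 IGF ligands, receptors and binding proteins, 10 were tested, 2 were higher (1 without Ndrg3 LKO replicate 5) and 4 lower, beside 25.6% and 23% of all genes. Igfbp2 fell from 869 ± 260 to 308 ± 217 CPM (SD, n = 5 each; log2 fold change -1.498, SE 0.46, edgeR adjusted p = 0.0181) and Igfbp1 from 449 ± 128 to 178 ± 65.1 CPM (-1.33, SE 0.28, adjusted p = 0.00234). Both encode binding proteins that the liver secretes. Igfbp7 rose from 20.4 ± 2.75 to 37.0 ± 8.30 CPM (0.86, SE 0.17, adjusted p = 0.00149). Igfbp3, the partner of IGF1 and IGFALS in the plasma complex, is made mainly by non-parenchymal liver cells and was also named after its values were seen. Its level was 11.8 CPM in wild-type and 20.5 CPM in Ndrg3 LKO livers and did not pass the test (edgeR adjusted p = 0.225), with 55.2 CPM in Ndrg3 LKO replicate 5, without which the log2 fold change was 0.0036 in place of 0.79.

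Male growth hormone pulses, through STAT5B, keep male-biased liver genes high and many female-biased ones low. Of 25 male-biased liver genes, 23 were tested, 22 were lower and 0 higher, beside 23% and 25.6% of all genes. Their median log2 fold change was -3.94. The list, like the others here, was chosen with earlier results of these data known, so these counts are not independent support. Genes near 0 in Ndrg3 LKO livers, such as Mup12 and Scara5, passed the filter only through the wild-type livers and could only be called lower. In 24 of the 25, every Ndrg3 LKO liver was below every control, beside 15.9% of all genes tested. The 24 include Moxd1, for which the gap rests on 1 count in wild-type replicate 3 and 1 count in Ndrg3 LKO replicate 4, under the floor. Selenbp2, a selenium-binding protein, fell from 3237 ± 769 to 10.3 ± 12.99 CPM, Mup12, a major urinary protein, from 119 ± 52.9 to 0.381 ± 0.282 CPM, and Scara5, a scavenger receptor, from 45.3 ± 10.1 to 0.138 ± 0.155 CPM (SD, n = 5 each; edgeR adjusted p = 6.39e-05, 2.12e-06 and 1.20e-06). Without Ndrg3 LKO replicate 5, the log2 fold change of Selenbp2 was -9.35 in place of -8.30. The Mup genes are near-identical copies, and their separate values are uncertain. The summed level of the 25 genes was between 52771 and 76822 CPM in wild-type livers, between 2487 and 5766 CPM in Ndrg3 LKO replicates 1 to 4 and 9384 CPM in replicate 5. In that liver Ghr, Socs2, Igf1, Igfals and 24 of the 25 male-biased genes were below every control, as were 5 of the 12 general hepatocyte genes. The share of all genes below every control in this 1 liver was not computed, so these counts cannot be set against it. The exception among the male-biased genes was Gstp2, at 4.63 CPM in that liver and at most 3.99 CPM in controls.

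Of 26 female-biased liver genes, 14 were tested, 8 were higher and 1 lower, beside 25.6% and 23% of all genes. The median log2 fold change was 1.63, and 2 were lower without Ndrg3 LKO replicate 5, beside 27% of all genes. Genes near 0 in controls, such as Cyp2b9 and Slc22a27, passed the filter only through the Ndrg3 LKO livers and could only be called higher. The count of higher genes and the median therefore depend in part on the filter. This list too was chosen with earlier results of these data known. Cyp2b9 rose from 0.139 ± 0.0849 to 58.5 ± 44.1 CPM and Cyp2a4 from 1.18 ± 0.6999 to 390 ± 733 CPM, both cytochrome P450 enzymes, and Slc22a27, an organic anion transporter, from 0.234 ± 0.162 to 19.2 ± 12.6 CPM (SD, n = 5 each; edgeR adjusted p = 8.49e-05, 0.000721 and 4.36e-05). Replicate 5 alone held 1700 CPM of Cyp2a4, and without it the log2 fold change was 5.72 in place of 8.36. Its summed female-biased level of 2995 CPM was the highest of all livers, above 597 to 953 CPM in the other Ndrg3 LKO livers and 191 to 411 CPM in controls. Cux2 was also high in that liver, at 2.27 CPM (48 counts), and about as high in replicate 3, at 2.32 CPM (90 counts).

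**Figure D5:**
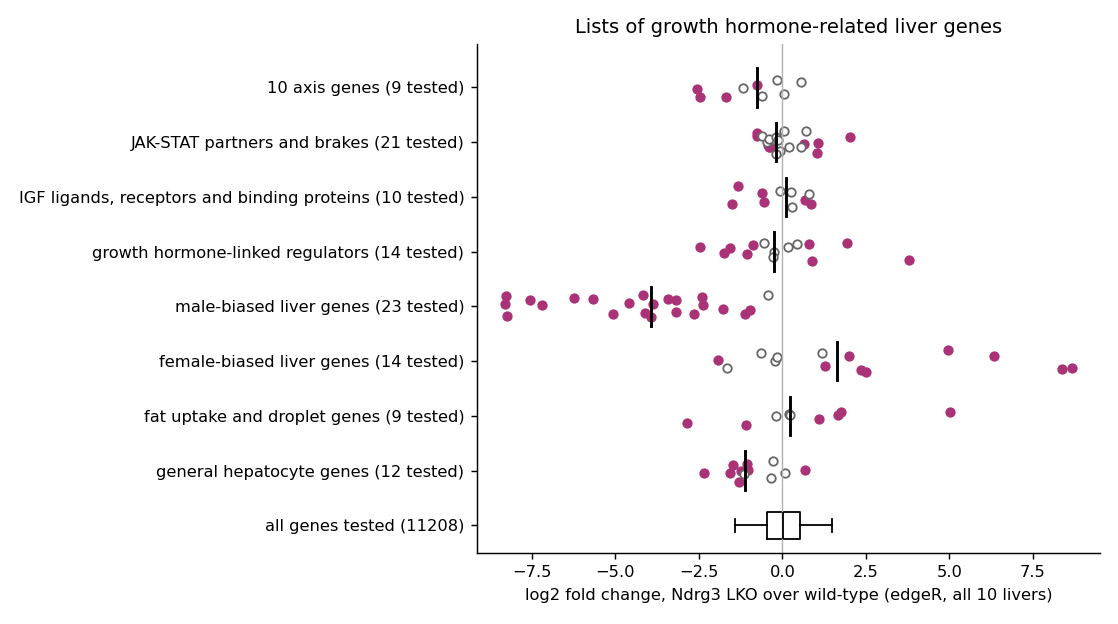
Log2 fold change (Ndrg3 LKO over wild-type, edgeR, 10 livers) of each tested gene in 8 lists, with filled points for an adjusted p under 0.05, open points for the others and a black line at the list's median. The box shows all 11208 genes tested (median, quartiles, whiskers at the 5th and 95th percentiles), and 22 of 23 male-biased genes lie to the left of the box as filled points.

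Among 15 regulators linked to growth hormone action, 14 were tested, 4 were higher and 5 lower, beside 25.6% and 23% of all genes. Lepr, the leptin receptor, rose from 9.70 ± 7.04 to 133 ± 55.9 CPM (log2 fold change 3.79, SE 0.52, edgeR adjusted p = 0.000182). Lifr, the leukaemia inhibitory factor receptor, fell from 455 ± 88.8 to 83.0 ± 36.8 CPM (-2.46, SE 0.28, adjusted p = 4.95e-05) and Cebpa, a hepatocyte transcription factor, from 346 ± 35.1 to 103 ± 53.8 CPM (-1.76, SE 0.28, adjusted p = 0.00045). Of 11 genes of fat uptake and lipid droplets, some of which rise in livers without growth hormone signalling, 9 were tested. Of these, 4 were higher, 2 lower and 3 not called, beside 25.6% of all genes higher and 23% lower. Vldlr, a lipoprotein receptor, rose from 0.749 ± 0.436 to 24.9 ± 14.02 CPM, Fabp4, a fatty acid carrier, rose from 7.83 ± 4.18 to 26.5 ± 21.2 CPM, and G0s2, an inhibitor of triglyceride breakdown, fell from 582 ± 192 to 81.0 ± 38.8 CPM (SD, n = 5 each; edgeR adjusted p = 2.004e-05, 0.0141 and 0.000128). Cd36 and Lpl made up the rest of the 4 that were higher, and Plin4 the other that was lower; these 3 were named after their values were seen. Without Ndrg3 LKO replicate 5, Cd36 was not called (edgeR adjusted p = 0.069) and 3 of 9 genes were higher, beside 28.3% of all genes. The log2 fold change of Fabp4 was then 1.17 in place of 1.75.

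Beside these lists stand the 12 general hepatocyte genes, which were not selected for growth hormone. Here 7 were lower and 1 higher, beside 23% and 25.6% of all genes, with a median log2 fold change of -1.10. Without Ndrg3 LKO replicate 5 the counts were 10 and 1, beside 27% and 28.3% of all genes, and the median was -1.51. With all livers, the largest changes among those called were those of Apoa1 (21691 ± 3180 to 4295 ± 5473 CPM), Fgb (4931 ± 1149 to 1678 ± 535 CPM) and Fga (3461 ± 843 to 1244 ± 498 CPM; SD, n = 5 each; edgeR adjusted p = 0.0108, 0.000428 and 0.00127). Without replicate 5 the order differed, with Apoa1 at -3.54 in place of -2.34, Serpina1a at -2.35, Alb at -2.05, Fgb at -1.75, Apob at -1.54 and Fga at -1.52 on the log2 scale. A lower level was therefore not particular to the axis genes, and the fall of Igf1, at -0.76, was smaller than this median, while those of Ghr, Igfals and Socs2 were larger. Whether the share of hepatocytes differed was not tested.

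The pattern of a gene over the livers was also compared with that of every other gene tested with at least 10 CPM in the higher group. The measure was the root mean square difference of log2(CPM + 1), taken relative to the wild-type mean, over 10 livers. The genes most like Ghr were AI317395 (difference 0.134), Srr (0.136) and Znrf1 (0.143), and those most like Igf1 were Dnajc1 (0.108), 1600012H06Rik (0.119) and Eftud1 (0.125). Those nearest to Cux2 were Lss (0.354), Sik1 (0.370) and Col4a2 (0.409). Cux2 held at most 2.32 CPM in any liver, where adding 1 flattens its change, so this nearness is not a shared fold change. Their log2 fold changes were 0.75, 0.61 and 1.26, against 3.95 for Cux2 without the filter. The genes near Ghr shared its low level in replicates 1 to 4 and its intermediate level in replicate 5 by the way they were found.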

How the data were processed

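The authors extracted RNA from frozen livers (3 ug of total RNA per library) and sequenced libraries of a stranded mRNA kit with 100 bp paired-end reads. Per the labels and the methods, reads were mapped to mm9 with STAR (2.7.3a in the processing notes, which also name Trim Galore 0.6.4 and Cufflinks 2.2.1), and the deposited values are raw counts per gene symbol, without normalization. The annotation and strand setting of the counting are not given in the sources used here. The file names carry the word CPM, but all values are whole numbers whose totals differ between livers. Of 24052 symbols, 25 look like dates and 6306 had 0 counts throughout.

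Counts were analysed in R 4.3.3 with edgeR 4.0.16 (TMM, robust quasi-likelihood test, at least 1 CPM in at least 5 livers), and with limma 3.58.1 and DESeq2 1.42.0 as alternatives, after tests on simulated data. Confidence intervals use the degrees of freedom of the fit. Exact permutation tests were 2-sided on log2(CPM + 1). The floor was 3 counts per library, which is 0.0985 to 0.144 CPM by library total, and covers counting error only. After TMM scaling, this floor was 0.138 to 0.179 CPM in wild-type and 0.0728 to 0.142 CPM in Ndrg3 LKO livers. Counts of the 20 same-group pairs of livers all differed beyond sampling noise. The labels name separate livers, and p-values measure the spread between them. Exon lengths and positions are from GENCODE for NCBIM37 (mm9), and promoter windows from RefSeq (GRCm38.p6 table), located in NCBIM37 by exact match.

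The 13 gene lists, of which the members are 1, were chosen with earlier results of these data known. Named genes are all 10 members and Ndrg3, the 3 called genes of each pathway list and of the general hepatocyte genes with the largest log2 fold change and at least 10 CPM in the higher group, and the 3 genes with the nearest pattern to Ghr, Igf1 and Cux2; 1 gene this rule names is not reported here. Of the other marker lists, only counts and sums are given. The alternatives were other scalings, filters, pseudocounts and tools, a replicate block, and each liver left out.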

Additional observations from a re-analysis of the deposited data

Results flagged for a closer look

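Single livers were compared with the rest of their group in 82 sets of 5 livers, of which chance alone sets about 1 in 20 apart by the criterion used, a gap to the nearest liver that takes up most of the group's range. It was met 8 times. Ndrg3 LKO replicate 5 accounted for 6 of these: Ghr at 303 CPM (next liver 150 CPM), Prlr at 94.9 CPM (next 48.1), Cebpa at 196 CPM (next 101), Apoa1 at 14016 CPM (next 2340), Cyp2a4 at 1700 CPM (next 103) and Stat5a at 7.46 CPM (next 10.6), the last of these below its group and the others above. Among wild-type livers, Stat5b was low in replicate 3 at 30.9 CPM (next 41.0) and G0s2 in replicate 4 at 251.9 CPM (next 607). For Ghr, Prlr, Cebpa and Apoa1 the stray liver lay toward the wild-type level, and for Cyp2a4 away from it.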

How the results depend on the processing

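Ghr, Igfals and Socs2 were lower and past the threshold in all 20 alternative analyses, with log2 fold changes from -2.09 to -1.26, -2.82 to -2.04 and -2.85 to -1.47. Igf1 was past it in 19, Prlr in 6, Stat5a in 1, and Stat5b, Cish and Bcl6 in 0. Library-size scaling gave Stat5a 0.62 (edgeR adjusted p = 0.0343), turned Stat5b to 0.41 (edgeR adjusted p = 0.140) and ended the call of Igf1, on a scale where the median of all genes was 0.56. With 1 liver left out, Stat5a was between -0.050 (without wild-type replicate 3) and 0.15. The number of genes called was between 4253 (mean CPM of at least 5) and 6843 (library-size scaling). Members called numbered 3 (absolute log2 fold change above 1) to 6 (no filter, with Prlr and Cux2). JAK-STAT genes called fell from 9 to 5 with a mean CPM of at least 5 or without wild-type replicate 4, and to 3 with the replicate block. Of the 4 ratios, between 0 and 2 were called with 1 liver left out. The ratio of Cux2 to Bcl6, -0.26 on the log2 scale, turned to 1.04 with a pseudocount of 0.1, and with 1 liver left out lay between -0.65 and 0.089, at 0.089 and 0.055 without wild-type replicate 3 and 4, and at 0.0035 without Ndrg3 LKO replicate 1. The fit with a replicate block called 4407 genes and 4 members. Deviations of same-numbered livers correlated between -0.357 and 0.036. Whether the numbers pair livers is not given in the sources used here, and these values cannot exclude it. The causes of these shifts were not tested. Cux2 had at most 2 counts in any control, so a level below the floor there cannot be measured at this depth.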

Other observations

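The 2 controls with low Cish and high Bcl6, wild-type replicates 2 and 5, also stood apart in several male-biased genes, which were picked after their values were seen. Moxd1 held 7.09 and 23.8 CPM in them and between 0.0558 and 0.169 CPM in the other 3 controls, and at most 1 count in any Ndrg3 LKO liver. Cyp7b1, an oxysterol hydroxylase, held 829.3 and 1168 CPM in them and 428 to 484 CPM in the others, and Ugt2b38 held 74.0 and 104 CPM against 17.2 to 30.8 CPM. In Ndrg3 LKO livers, where Bcl6 was between 33.5 and 57.3 CPM throughout, Cyp7b1 was between 27.9 and 166 CPM and Ugt2b38 between 0.206 and 2.12 CPM. Over all 25 male-biased genes, 11 were higher in both of these controls than in each of the other 3, 0 were lower in both, and 14 were mixed. Of the 12 general hepatocyte genes, 3 were higher in both, 3 were lower in both and 6 were mixed. The share over all genes was not computed, and the near-identical Mup copies among the 25 are not separate evidence.

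Several listed genes fell under the filter on low counts and were counted over 5 livers a group. The female-biased Cyp3a44 had 17 counts in wild-type and 8644 in Ndrg3 LKO livers, Cyp3a41a had 2 and 836, and A1bg had 12 and 134, while Sult1e1 went the other way with 185 and 38. Most of the counts of the 2 Cyp3a genes came from Ndrg3 LKO replicate 3, with 7138 of Cyp3a44 and 706 of Cyp3a41a. In Ndrg3 LKO replicates 4 and 5, Cyp3a44 had 139 and 23 counts. Cyp3a41a had 2 in each of these livers, as many as in wild-type replicate 4. The male-biased Mup11 had 173 counts in wild-type and 0 in Ndrg3 LKO livers. Pappa2, a protease that frees IGF1 from its binding proteins, had 1 and 39 counts, with 22 in Ndrg3 LKO replicate 3 and 0 in replicate 5. The Cyp3a and Mup genes belong to families of near-identical copies.

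In the RefSeq promoter windows, TTCNNNGAA was found in 1 of 17 male-biased and 5 of 18 female-biased genes with a window, in 0 of 12 IGF system genes and in 2 of 7 general hepatocyte genes, beside 9.55% of 27025 genes.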
